A study of Mus musculus with 15 samples.

Results

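The 5 miRNAs described here belong to a small set that is made with Dicer but without Drosha, and they were compared in the livers of mice on 3 diets. They were chosen by name, as every mouse miRNA on the array called miR-320, miR-484, miR-877, miR-1224 or miR-702, with or without a 5p or 3p arm. This gave mmu-miR-320-3p, mmu-miR-484, mmu-miR-877-5p, mmu-miR-877-3p and mmu-miR-1224-5p, written below without the prefix for mouse, 5 of the 696 mouse miRNAs on the array. The name miR-702_v18.0, which carries the suffix of a database version, was not matched, and its values are given once below. The livers came from 15 male B6C57/J mice, 5 on each diet, with 1 array per mouse. The diets began at 1 year of age and were kept up for life. The standard diet (SD) mice ate AIN-93G chow freely, the metformin (Met) mice ate the same chow freely with 0.1% w/w metformin, and the caloric restriction (CR) mice were restricted by 40%. RNA was taken from whole liver, so fewer cells of a type and less RNA per cell cannot be told apart.

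Most miRNAs are cut out of a long primary transcript by Drosha in the nucleus, and the hairpin released is cut again by Dicer in the cytoplasm. Mirtrons such as miR-877 and miR-1224 skip the first step, because the hairpin is a whole short intron that the spliceosome releases. The precursor of miR-320 is transcribed directly as a capped hairpin, and that of miR-484 lies at the start of the Nde1 transcript, so neither needs Drosha. The opposite case is miR-451a, an erythrocyte miRNA, which is cut by Drosha and then by Ago2 and does not need Dicer. The study measured Dicer in the same diets, and the question here is how the miRNAs that need Dicer alone were detected on each diet.

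The hairpins of both mirtrons are shown with the ends that a spliced intron carries. RefSeq for GRCm38.p6 held 4 of the 5 members, all but miR-320-3p. The first and last bases of an intron are GU and AG, and these are in capitals in the 2 mirtron hairpins below. The Mir1224 hairpin lies at chr16:20604452-20604536 on the plus strand, within the gene Vwa5b2, and the Mir877 hairpin at chr17:35960730-35960814 on the minus strand, within Abcf1, which encodes a factor of translation initiation.
Mir1224 hairpin: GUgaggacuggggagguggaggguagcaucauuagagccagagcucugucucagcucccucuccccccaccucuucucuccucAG
Mir877 hairpin: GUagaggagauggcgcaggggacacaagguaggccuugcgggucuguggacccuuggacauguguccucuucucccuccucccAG
Of the 1005 mouse hairpins in that table, 30 begin with GU and end with AG, a share of 2.99%. The match of both ends describes these letters and does not show that a hairpin is spliced. In both mirtrons the 5p arm starts at base 1 of the hairpin, that is, at the splice site. The hairpin of miR-484, at chr16:14159626-14159692 on the plus strand, has neither end.

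The mature arms are given next, with the seed, bases 2 to 8, in capitals, since the seed is the part that pairs with targets. miR-451a is added as the Dicer-independent contrast.
miR-1224-5p: gUGAGGACuggggagguggag
miR-877-5p: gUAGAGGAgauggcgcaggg
miR-877-3p: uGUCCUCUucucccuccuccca
miR-484: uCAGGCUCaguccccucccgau
miR-451a: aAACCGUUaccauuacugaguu
No 2 of these arms share a seed, and 0 other mature mouse miRNAs in the table carry the seed of any of the 4 members. The 5p arms of the mirtrons are rich in G, at 61.9% for miR-1224-5p and 55% for miR-877-5p, against a median of 26.1% over 1738 mature miRNAs. A G share as high as that of miR-877-5p was found in 2.30% of them. The 3p arm of miR-877 is instead 4.55% G.

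Each member was measured on every array by 20 spots, which came from 2 probes for miR-1224-5p, miR-320-3p and miR-484 and from 4 probes for each arm of miR-877. The arrays detected 151 to 205 miRNAs, with medians of 185 in SD, 184 in CR and 188 in Met. The liver markers miR-122-5p, miR-192-5p and miR-194-5p were detected on 15 of 15 arrays, and the neuronal miR-124-3p and miR-9-5p on 0. The muscle miRNAs miR-1a-3p, miR-133a-3p and miR-206-3p were detected on the array of CR mouse 5 and on no other. Without that array no member met the criteria described below in either comparison with CR, and each Z ratio kept its sign. The negative control spots had median signals of 106 to 115 in SD, 110 to 118 in CR and 114 to 118 in Met. Slide 1 carried the SD group together with Met mice 1 to 3, and slide 2 carried the CR group together with Met mice 4 and 5. CR and SD thus shared no slide, and a fit with the slide as a block compares them by way of the Met arrays alone.

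Detection by the scanner software divided the members into a bright one, a pair near background and a pair that was never seen. miR-1224-5p was detected on all arrays of the 3 diets. miR-320-3p was detected on 4 of 5 SD, 4 of 5 CR and 5 of 5 Met arrays. For miR-877-5p this was 4 of 5 in SD and 0 of 5 in both CR and Met. miR-484 and miR-877-3p were detected on 0 of 15 arrays. In all, 3 of the 5 members were detected on any array, and miR-1224-5p and miR-320-3p passed the filter for testing, which asks for detection on all 5 arrays of at least 1 group and was met by 178 of 696 miRNAs. miR-320-3p passed it through the Met arrays.

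miR-1224-5p is the mirtron product with the clearest signal against background, since 20 of its 20 spots were well above background on each array. Its level is given as the total gene signal, the background-subtracted intensity of a miRNA as the scanner software sums it over probes, on a linear scale without scaling between arrays. In SD mice 1 to 5 it was 1869, 1046, 1557, 1207 and 1296. In CR mice it was 1255, 1156, 1186, 1112 and 1216, and in Met mice it was 1194, 1191, 1680, 1646 and 1068. The groups overlapped, and the CR values all lay inside the range of the SD values.

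The mean total gene signal of miR-1224-5p was 1395 ± 323 in SD, 1185 ± 54.9 in CR and 1356 ± 285 in Met (mean ± SD, n = 5). No difference passed a two-sided exact permutation test over all ways to part 10 arrays into 5 and 5, with p = 0.833 for Met against SD, 0.238 for CR against SD and 0.341 for CR against Met. The order of CR turned with the scaling. After division by the 75th percentile of detected miRNAs on each array, CR had the highest mean, at 3.40, followed by SD at 2.56 and Met at 2.29, in multiples of that percentile. Without SD mouse 2, whose signal was the lowest of the SD group, the unscaled difference between CR and SD gave an exact permutation p of 0.0238, unadjusted. The 2 groups still overlapped. Leaving out any other single SD or CR mouse gave an exact permutation p of 0.151 to 0.444.

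**Figure D1:**
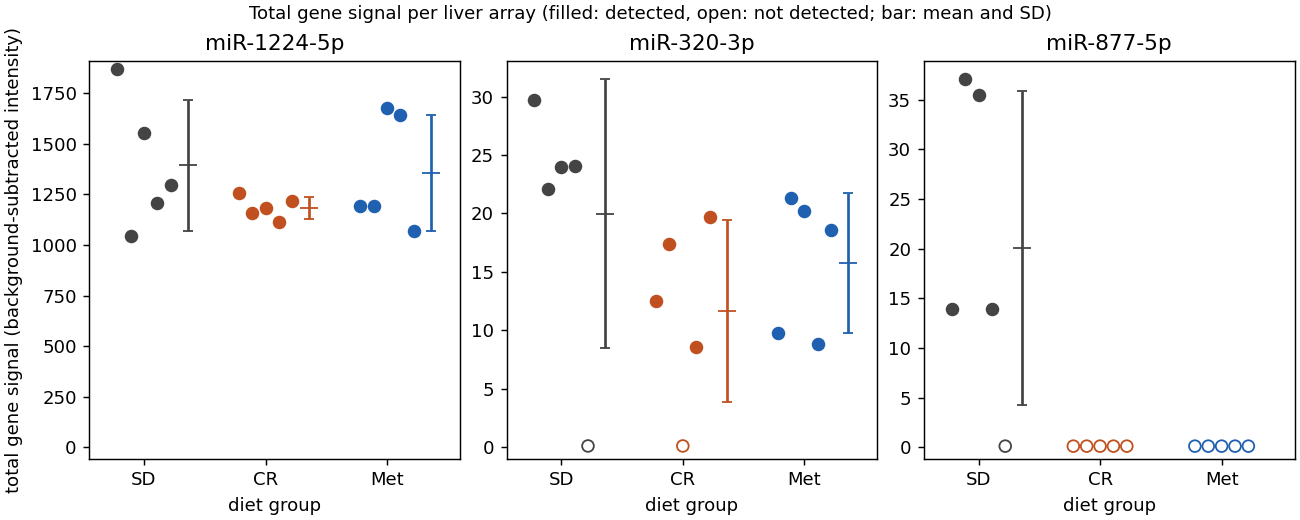
Total gene signal (background-subtracted intensity, linear axis with its own scale in each panel) of miR-1224-5p, miR-320-3p and miR-877-5p on each of the 15 arrays, by diet, with the mean and SD of a group as a bar. Filled points are detected and open points not detected; miR-877-5p is filled on 4 SD arrays and open on all 10 CR and Met arrays, while the miR-1224-5p points of the 3 diets overlap.

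For tests across all miRNAs, the level was taken as a z-score, the natural log of the spot signal expressed as its distance from the array's mean, in standard deviations. The background is not subtracted in it, so a z-score near -0.3 is the level of an empty probe. A miRNA met the criteria when limma gave p of 0.05 or less and an adjusted p of 0.3 or less and when the Z ratio was at least 1.5 in size, where the Z ratio is the difference divided by its standard deviation over all 696 miRNAs. The z-score of miR-1224-5p was 2.71 ± 0.225 in SD, 2.75 ± 0.216 in CR and 2.67 ± 0.280 in Met (mean ± SD, n = 5). The difference between Met and SD was -0.0397 (standard error 0.153, limma adjusted p = 0.930), for CR against SD it was 0.0362 (limma adjusted p = 0.872) and for CR against Met 0.0759 (limma adjusted p = 0.697). Each was smaller than the spread within a diet. Its sign changed in each comparison when single mice were left out.

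miR-877-5p, the 5p arm of the Abcf1 mirtron, was the member whose detection differed between diets. Its total gene signal in SD mice 1 to 5 was 14.0, 37.1, 35.5, 13.9 and 0.1, where 0.1 is the value the software gives to a miRNA it does not detect. All 5 CR and all 5 Met arrays were at 0.1. The SD group thus held 2 high, 2 low and 1 undetected array, and the undetected SD array overlapped the other diets.

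Between Met and SD, detection on 0 against 4 of 5 arrays gave p = 0.0476 by Fisher's exact test, and 1 after adjustment over 696 miRNAs. miR-877-5p was the 1 miRNA of 696 (0.144%) whose detection differed by at least 4 arrays in that comparison. The same counts held between CR and SD, where the detection of 4 of 696 miRNAs (0.575%) differed by that much. Both comparisons share the SD arrays. Under a stricter rule, with at least 10 of the 20 spots well above background, miR-877-5p was present on 2 of 5 SD arrays and 0 of 10 others (p = 0.444 by Fisher's exact test for either diet).

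The total gene signal of miR-877-5p averaged 20.1 ± 15.8 in SD (mean ± SD, n = 5). The two-sided exact permutation test gave p = 0.0476 for Met against SD and for CR against SD. With all CR and Met arrays at 0.1, this value follows from the detection counts and is no second result beside Fisher's test. Adjusted over the miRNAs detected on any array compared, the exact permutation p was 0.692 for Met (218 miRNAs) and 0.240 for CR (222 miRNAs). An unadjusted p of 0.05 or less was reached by 6.88% of these miRNAs for Met and 19.8% for CR, and by 0 in either comparison after adjustment. Taking the lowest detected signal of each array as the upper limit for an undetected miRNA, and signals scaled to the 75th percentile, SD was at least 1.70-fold higher than Met and at least 1.24-fold higher than CR. SD mouse 5 enters these bounds at its listed 0.1, and without it they were 5.13-fold and 3.75-fold. Without SD mouse 5 the detected SD arrays no longer overlapped the other diets. The exact permutation p was then 0.00794 in both comparisons, the smallest that 4 mice against 5 allow. With all CR and Met arrays at 0.1, leaving out the 1 undetected SD array fixed this p in advance. It therefore adds nothing to the detection calls, and the 5.13-fold and 3.75-fold bounds leave out the same array.

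All 4 probes of miR-877-5p gave the same picture. Of 25 spots per probe and diet, 7, 11, 14 and 11 were well above background in SD, 0 for each probe in CR, and 0, 0, 1 and 1 in Met. By array, SD mice 1 to 5 had 3, 19, 18, 2 and 1 of 20 spots well above background, and no CR or Met array had more than 2. The median spot of miR-877-5p exceeded the negative control spots by 13.5, 29.5, 26.8, 15.5 and 4 intensity units in SD mice 1 to 5, against 1.25 to 3.25 in CR and 1.75 to 6 in Met. The negative controls were themselves dimmer in SD, which widens this measure for SD, and it was not tested. Before subtraction the median spot of SD mouse 1, at 119.5, lay below the highest CR and Met arrays, at 120.5 and 122.75.

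The z-score of miR-877-5p was -0.130 ± 0.114 in SD, -0.252 ± 0.0326 in CR and -0.265 ± 0.0133 in Met (mean ± SD, n = 5). In the limma fit over all 696 miRNAs, Met and SD differed by -0.135 (standard error 0.0381), with a Z ratio of -2.21 and an adjusted p of 0.366, which is over the limit of 0.3. In that fit 1 of 696 miRNAs (0.144%) met the criteria for Met against SD. Without SD mouse 5, miR-877-5p met the criteria at a Z ratio of -2.20 (limma adjusted p = 0.0182), and without SD mouse 1 at a limma adjusted p of 0.266. SD mouse 5 is the SD mouse in which it was not detected, so leaving that array out favours this call. Among miRNAs that passed the filter, 12 of 185 met the criteria without SD mouse 5. This was 3 of 178 without SD mouse 1 and 2 of 178 with all mice. The matching counts over all 696 miRNAs are not given here. For CR against SD the difference was -0.122 (standard error 0.0381, limma adjusted p = 0.0304), and the Z ratio of -0.731 missed the limit. Of all 696 miRNAs, 80.5% had an adjusted p of 0.3 or less in that comparison and 3.88% met all criteria, and the median difference was 0.0270, of the opposite sign. Without CR mouse 5, which carried the muscle miRNAs, the Z ratio was -0.588. With the slide as a block the limma adjusted p was 0.242. Between CR and Met the difference was 0.0132 (limma adjusted p = 0.771).

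Diet was not the only thing the detecting arrays had in common. The scanner output numbers each array by 2 figures, which are read here as 1 of 2 lines and a place within it, although no source used here states what they mean. Read so, the arrays of SD mice 1 to 4 fill the first line of slide 1. SD mouse 5 and Met mice 1 to 3 fill the second line. SD mouse 5 is the SD mouse in which miR-877-5p was not detected, and its z-score of -0.285 lay below those of the 3 Met mice beside it, at -0.281 to -0.248. The first line of slide 2, with Met mice 4 and 5 and CR mice 1 and 2, detected no miR-877-5p. On slide 1 alone, the total gene signal of SD and Met mice gave an exact permutation p of 0.107. With limma on slide 1 alone, the Z ratio was -2.58 and the adjusted p 0.900. Within the first line of slide 1 there was only SD, so diet and position cannot be told apart for these 4 arrays.

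**Figure D2:**
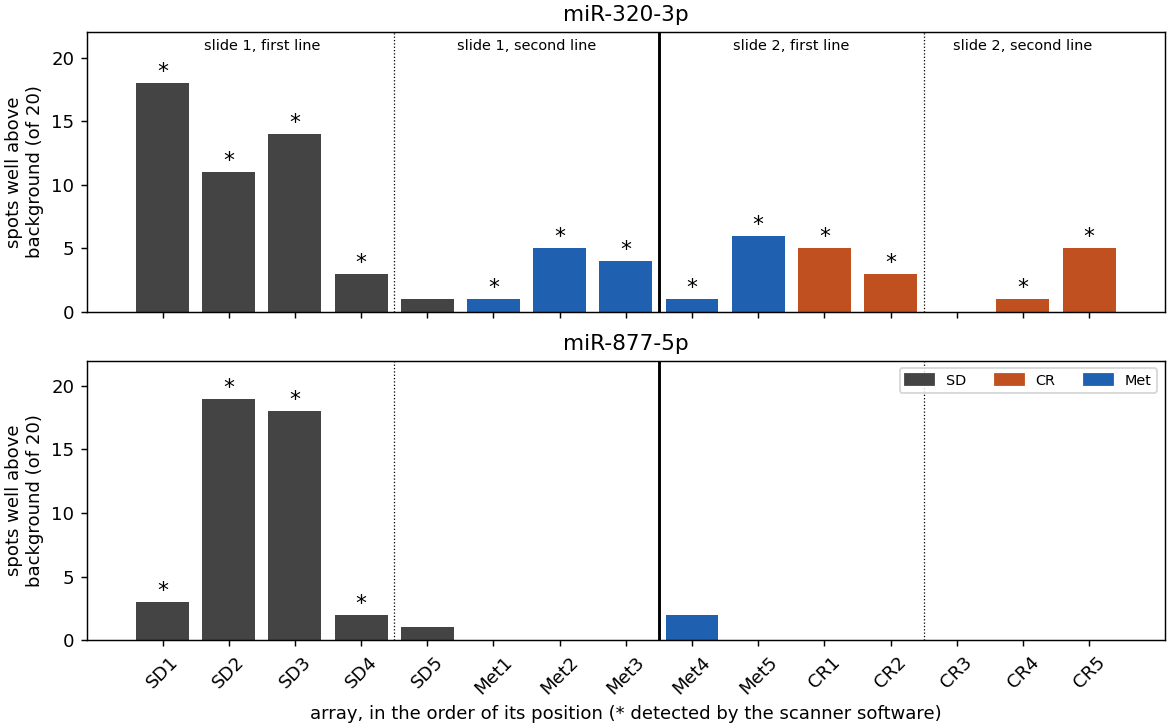
Number of spots well above background, of 20 per array, for miR-320-3p (top) and miR-877-5p (bottom), with the arrays in the order of slide and position line, as read from the array numbers, and the bars coloured by diet. A star marks detection by the scanner software. The tall bars stand on SD arrays in the first line of slide 1, at up to 18 spots for miR-320-3p and 19 for miR-877-5p.

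Among all 696 miRNAs, miR-877-5p was the 1 whose z-scores in the first line of slide 1 all exceeded those of the 11 other arrays. These are the 4 arrays that detected it, so this largely restates its detection calls. The 4 arrays of that line exceeded the other 4 arrays of slide 1 for 13 of 696 miRNAs (1.87%), which included miR-320-3p as well.

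The other arm of the hairpin, miR-877-3p, was not detected, and 0 or 1 of its 20 spots per array was well above background. Its z-score averaged -0.260 ± 0.0213 in SD, -0.232 ± 0.0299 in CR and -0.280 ± 0.0121 in Met (mean ± SD, n = 5). Between CR and Met it differed by 0.0479 (limma adjusted p = 0.0334), with a Z ratio of 0.309 that missed the limit. Among the 470 miRNAs detected on no array, 81.5% had an adjusted p of 0.3 or less in that comparison, and their median difference was 0.0257. The difference of miR-877-3p thus had the sign of most empty probes. Against SD, miR-877-3p differed by -0.0206 in Met (limma adjusted p = 0.998) and by 0.0273 in CR (limma adjusted p = 0.126, and 0.0224 without CR mouse 5).

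miR-320-3p, from the capped precursor next to the gene Polr3d, lay just above background. Its total gene signal in SD mice 1 to 5 was 29.7, 22.1, 24.0, 24.0 and 0.1. In CR mice it was 12.5, 17.4, 0.1, 8.57 and 19.7, and in Met mice 9.78, 21.3, 20.2, 8.79 and 18.6. Without scaling between arrays, the 4 detected SD values were above all CR and Met values, while the undetected SD mouse 5 and CR mouse 3 were at the software's lowest value. Scaled to the 75th percentile this order was lost, since CR mouse 2, at 0.0608, lay above every SD mouse, and CR mouse 5 and Met mouse 2 lay above SD mouse 3, at 0.0365.

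The mean total gene signal of miR-320-3p was 20.0 ± 11.5 in SD, 11.7 ± 7.78 in CR and 15.7 ± 5.99 in Met (mean ± SD, n = 5). The two-sided exact permutation test gave p = 0.492 for Met against SD, 0.214 for CR against SD and 0.365 for CR against Met. After scaling it gave p = 0.325 for Met against SD and 0.556 for CR against SD (exact permutation test). SD mouse 5 decided the unscaled values. Without it, the 4 unscaled SD values did not overlap those of either other diet. The exact permutation p was then 0.0238 for Met against SD and 0.0159 for CR against SD, unadjusted. These 4 values already lay above all CR and Met values, so leaving out the 1 undetected SD array fixed this separation in advance. The p-values without it therefore add nothing to the order of the detected values. How many other miRNAs separate in this way without SD mouse 5 is not given here. With all mice and unscaled signals, 8 such tests were run over the members and 3 over miR-451a, and each was repeated with scaled signals, within a slide where it held both diets, and without each mouse.

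Well above background were 47 of 100 spots of miR-320-3p in SD, 14 of 100 in CR and 17 of 100 in Met. By array this was 18, 11, 14, 3 and 1 of 20 spots in SD mice 1 to 5, at most 5 in CR and at most 6 in Met. Both probes showed it, one with 31, 13 and 13 of 50 spots in SD, CR and Met and the other with 16, 1 and 4. With at least 10 of 20 spots as the rule, miR-320-3p was present on 3 of 5 SD arrays and 0 of 5 in each other diet, at p = 0.167 by Fisher's exact test. Its median spot exceeded the negative control spots by 15.5 to 21.25 intensity units in SD, 7.5 to 13.5 in CR and 9 to 15 in Met. SD mouse 5, undetected by the software, was the lowest SD array by this measure, at 15.5. The negative controls were themselves dimmer in SD, with a median of 108 against 114 in CR and 116 in Met, and this measure was not tested.

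The z-score of miR-320-3p was -0.128 ± 0.0296 in SD, -0.150 ± 0.0184 in CR and -0.176 ± 0.0294 in Met (mean ± SD, n = 5). Met and SD differed by -0.0476 (standard error 0.0171), a Z ratio of -0.781 (limma adjusted p = 0.351). CR and SD differed by -0.0221 (limma adjusted p = 0.347), and that sign turned under 2 other scalings, with another background correction and with the slide as a block. CR and Met differed by 0.0255 (limma adjusted p = 0.238). No comparison of miR-320-3p met the criteria.

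miR-484, from the start of the Nde1 transcript, was not detected, and 0 of 100 of its spots were well above background in SD, 0 of 100 in CR and 2 of 100 in Met. Its median spot exceeded the negative controls by 2.5 to 7 intensity units over the 15 arrays. Its z-scores averaged -0.257 ± 0.0176 in SD, -0.234 ± 0.0210 in CR and -0.261 ± 0.0119 in Met (mean ± SD, n = 5). The differences were -0.00416 for Met against SD, 0.0230 for CR against SD and 0.0272 for CR against Met, with limma adjusted p of 0.998, 0.130 and 0.102. miR-702_v18.0, which is named for a further mirtron, was also detected on no array, with -2.25 to 3.5 intensity units over the negative controls. A level below the detection of these arrays cannot be compared between diets.

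**Figure D3:**
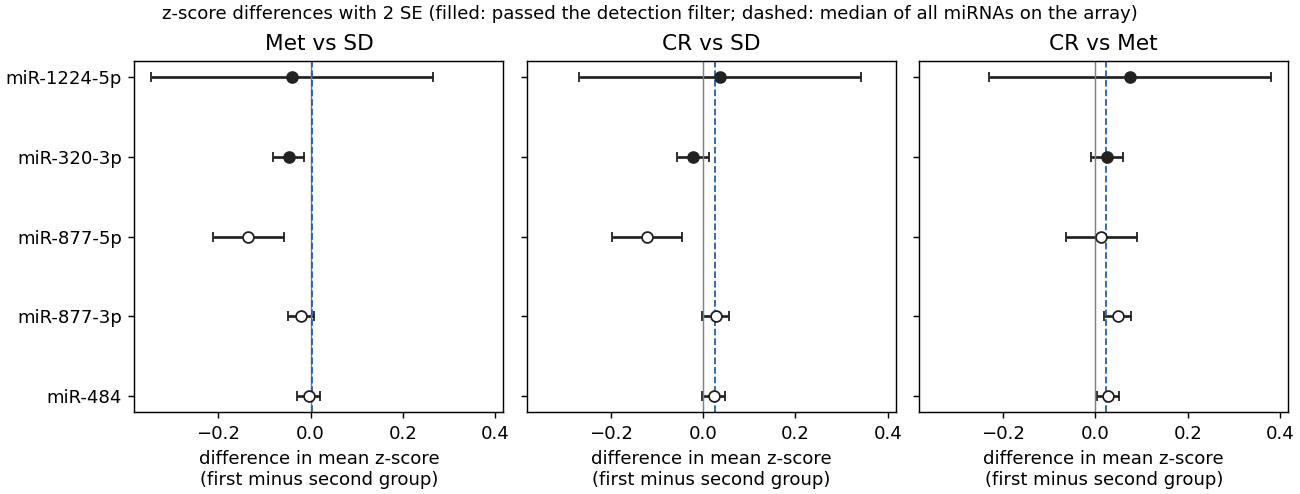
Difference in mean z-score between 2 diets (first minus second) for the 5 members, with bars of 2 standard errors from limma, in the 3 comparisons. Filled points passed the detection filter, open points come from the fit over all 696 miRNAs, and the dashed line is the median difference of those 696. miR-877-5p lies at -0.135 for Met against SD and -0.122 for CR against SD, while miR-1224-5p is near 0 with wide bars.

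Over the members as a list, 0 of 5 met the criteria in each of the 3 comparisons. Among the 178 miRNAs that passed the filter, 1.12% met them for Met against SD, 17.4% for CR against SD and 20.8% for CR against Met. In the fit over all 696, 4.89% met them for CR against Met. Detection differed by at least 4 arrays for no member and for 0.287% of all miRNAs when CR was set against Met. At an unadjusted limma p of 0.05 or less stood miR-320-3p and miR-877-5p for Met against SD (6.74% of the 178 tested miRNAs and 2.73% of all 696), miR-877-5p for CR against SD (52.9% of 696), and miR-484 and miR-877-3p for CR against Met (44.5% of 696). The mean z-score was lower in Met than in SD for the 3 detected members and for miR-484 and miR-877-3p, whose z-scores are those of undetected miRNAs. The median difference of the 5 was -0.0397 against 0.00298 over all 696 miRNAs, of which 40.8% were lower in Met. For miR-484 and miR-877-3p this sign turned under another scaling, and for miR-1224-5p when single mice were left out. For CR against SD 2 of 5 members were lower in CR, against 18.4% of all miRNAs, and the median difference was 0.0230 against 0.0270. Between CR and Met none of the 5 was lower in CR, against 18.8% of all miRNAs, and the median was 0.0272 against 0.0237.

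miR-451a, which needs Drosha but not Dicer, was detected on all 15 arrays and varied widely among CR mice. Its total gene signal in CR mice 1 to 5 was 349, 33.8, 44.5, 270 and 770, while SD mice lay between 265 and 711 and Met mice between 291 and 612. CR mice 2 and 3, the lowest, were also the arrays with the fewest detected miRNAs, at 167 and 151. Some marker miRNAs had a lower mean and a wider spread in CR as well, and others did not. The hepatocyte miR-192-5p had z-scores of 2.14 ± 0.799 against 3.03 ± 0.169 in SD (mean ± SD, n = 5). The endothelial miR-126-3p had 1.59 ± 0.513 against 1.94 ± 0.139. The hepatocyte miR-122-5p was instead higher and less spread in CR, at 6.29 ± 0.0985 against 6.07 ± 0.214. Slightly higher means in CR were also found for miR-155-5p (-0.121 against -0.156) and miR-150-5p (-0.213 against -0.227). Both lay near background, with total gene signals in CR of at most 28.3 and 14.5. The 470 miRNAs detected on no array were also higher in CR than in SD, by a median of 0.0284 (quartiles 0.0214 to 0.0358). The small differences of miR-155-5p and miR-150-5p cannot be told apart from that shift. What part array quality or cell content had in miR-451a was not tested. The z-score differed from SD by -0.624 (Z ratio -3.75, limma adjusted p = 0.144) and from Met by -0.530 (Z ratio -3.42, limma adjusted p = 0.180). Neither difference met the criteria, since the unadjusted limma p was 0.0622 and 0.108. The one with SD met them without SD mouse 2, CR mouse 1 or CR mouse 5, and the one with Met without CR mouse 5. Between Met and SD the difference was -0.0943 (limma adjusted p = 0.930). The z-scores of CR mice had a standard deviation of 0.847, against 0.350 for SD mice and 0.266 for Met mice.

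The members did not follow one pattern across the 15 arrays. The Pearson correlation of their z-scores was 0.565 between miR-877-5p and miR-320-3p, 0.389 between miR-320-3p and miR-1224-5p and -0.00195 between miR-877-5p and miR-1224-5p, as a description over arrays that share slides and background. Outside the members, the tested miRNAs most like miR-877-5p were miR-2861 (r = 0.934), miR-2132_v15.0 (r = 0.873) and miR-680 (r = 0.797). For miR-320-3p they were miR-1897-5p (0.827), miR-671-5p (0.769) and miR-680 (0.744), and for miR-1224-5p miR-494-3p (0.788), miR-2138_v15.0 (0.775) and miR-709 (0.742).

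The closest likeness was that of miR-2861 to miR-877-5p, and the 2 sequences are shown to compare their bases, with the seed in capitals.
miR-877-5p: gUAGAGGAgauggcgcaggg
miR-2861: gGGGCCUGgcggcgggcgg
The seeds differ, and both miRNAs are rich in G, at 55% and 68.4%. The z-score of miR-2861 in SD mice 1 to 5 was 0.983, 1.45, 1.40, 1.21 and 0.877, so that SD mouse 5 was its lowest SD value too. In the Met group miR-2861 lay between 0.729 and 0.841, below every SD mouse, while the CR mice, from 0.799 upward, overlapped the SD mice. miR-2861 met the criteria between Met and SD, with a Z ratio of -6.62 and an adjusted p of 0.0772 from limma. All 8 miRNAs most like the members were detected on 15 of 15 arrays. Of these 8, the RefSeq table gave a sequence for 4, and beside miR-2861 the G share was 52.2% in miR-671-5p, 47.6% in miR-680 and 18.2% in miR-494-3p. What part base composition had in these values was not tested.

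**Figure D4:**
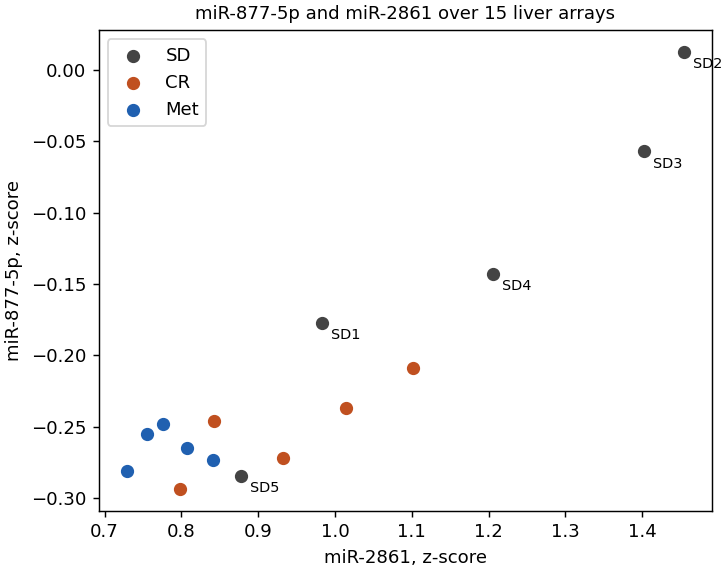
z-score of miR-877-5p against that of miR-2861 on the 15 arrays, coloured by diet, with the 5 SD arrays named. SD mice 1 to 4 lie above the other arrays on the vertical axis, and SD mouse 5 lies among the CR and Met arrays.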

How the data were processed

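Liver RNA of each mouse, Cy3-labeled, was read on a 1-color Agilent miRNA array. The authors deposited Feature Extraction 11.5.1.1 output with the intensity of each spot, not normalized between arrays, and the software's flags for detection and outliers. They also deposited a score for each spot, without a stated scale. The deposited scores, which are z-scores of ln(median spot signal) per array, differed from those computed here from the scanner intensity by at most 0.0005 and were an alternative. Spots marked as outliers were left out, and spots were averaged per probe and probes per miRNA. Total gene signal is the authors' deposited background-subtracted intensity per miRNA, summed by the software.

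limma 3.58.1 in R 4.3.3 (lmFit, eBayes with trend) was fitted over all 15 arrays and tested on simulated data. Members that failed the filter come from a fit over all 696 miRNAs. Counts of detected arrays were tested by Fisher's exact test and total gene signal by exact permutation, with Python 3.11.15, numpy 2.4.6, pandas 2.3.3 and scipy 1.17.1. Figures were drawn with matplotlib 3.10.9. The members and lists were chosen with earlier results of these data known. The named miRNAs are the members, miR-451a and, for each member detected on at least 4 arrays of a group, the 3 tested miRNAs with the highest Pearson correlation of z-score. miR-702_v18.0 and the marker miRNAs are also named. The 5 arrays per group limit the precision, and the number in a label marks a mouse. Hairpin positions are those of RefSeq for GRCm38.p6, while the array annotation refers to mm9. Alternatives were other scalings, background correction, filters, tests, slide or replicate number as a block, and the data without each mouse in turn. Keeping outlier spots, total gene signal on 1 slide only, detection without each mouse and the bound without SD mouse 5 were chosen after seeing the data. RT-qPCR and protein levels were not analysed here.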

Additional observations from a re-analysis of the deposited data

Results flagged for a closer look

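1 of the 22 sets of 5 values examined, the z-scores of the 5 members and the total gene signals of the detected ones by diet, held a value far from the others. The total gene signal of miR-320-3p in SD mouse 5 was 0.1, not detected, while the 4 other SD mice lay between 22.1 and 29.7. The gap to the nearest SD mouse was 0.742 of the whole range of the group. It rests on 0.1, the value the software gives to an undetected miRNA. The median spot of miR-320-3p exceeded the negative controls by 15.5 intensity units in SD mouse 5, against 16.5 to 21.25 in the other SD mice. Chance marks about 1 in 20 such sets when the 5 values are normally distributed. That rate does not hold for sets in which 0.1 stands for an undetected miRNA. The same array was the 1 SD array without detection of miR-877-5p, had the fewest detected miRNAs of the SD group, at 170, and, as the array numbers are read here, lay in another position line than the other SD arrays. Whether position had a part in this value was not tested.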

How the results depend on the processing

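The 5 arrays per group, signals close to background for miR-320-3p and miR-877-5p, and slides that CR and SD do not share limit these results. No member met the criteria as reported. miR-877-5p met them for Met against SD, making 1 member, with the pairwise z-test of the methods (adjusted p = 0.260), with the replicate number as a block (limma adjusted p = 0.219) and with outlier spots kept (limma adjusted p = 0.121), and for CR against SD, again 1 member, with each array scaled to its 75th percentile, taken over detected probes or over all. Leaving out each mouse gave 0 to 1 members for Met against SD, with 1 without SD mouse 1 or 5. All these calls of miR-877-5p come from fits over all 696 miRNAs. The counts of miRNAs in the next paragraph are instead for those that passed a detection filter, except where no filter is named. The share of the 696 that met the criteria under each of these alternatives is not given here, so these calls have no matching background. With the slide as a block the adjusted p of miR-877-5p for Met against SD was 0.9996, and over all its alternatives it ran from 0.0182 to 0.9997. Of 263 Z ratios of miR-1224-5p, miR-320-3p and miR-877-5p under alternatives, 245 kept their sign and side of the criteria, 7 newly met the criteria and 11 changed sign. The replicate numbers did not pair the mice, with correlations of deviations from -0.562 to 0.714, and the replicate block gave 2, 32 and 37 miRNAs for the 3 comparisons.

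For Met against SD, 2 miRNAs met the criteria, both lower in Met. This became 0 with either percentile scaling, z-scores over detected miRNAs, total gene signal, an adjusted p limit of 0.05, the slide as a block or slide 1 alone. It became 1 (0 higher in Met) with quantile normalization or no filter, 4 (1 higher) with only the groups compared, 13 (9 higher) with the z-test, and 1 to 12 without single mice, the 12 (7 higher) without SD mouse 5. For CR against SD, 31 met them (5 higher in CR), against 67 (43 higher) with scaling to detected probes, 11 (0 higher) to all probes, 64 (36 higher) with total gene signal and 17 with the slide as a block. For CR against Met, 37 met them (8 higher), against 76 (45 higher), 10 (0 higher) and 80 (53 higher) with the first 3 of these and 12 on slide 2 alone. Scaling to detected probes moved the median of the tested miRNAs to 0.309 (CR against SD) and 0.192 (CR against Met) on the log2 scale, and total gene signal to 0.279 and 0.253. Total gene signal could not be fitted for members that failed the filter.

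Z ratios changed sign as follows, and the cause was not tested. For Met against SD, miR-484 was at 0.153 with scaling to detected probes, 0.0364 with outlier spots kept and -0.145 to 0.0475 without single mice, and miR-877-3p was at 0.0424 with scaling to all probes. For CR against SD, miR-320-3p was at 0.466 with scaling to detected probes, 0.335 with z-scores over detected miRNAs, 0.0404 with normexp and 0.0648 with the slide as a block. For CR against Met, miR-877-5p was at -0.0459 with quantile normalization. Without single mice, miR-1224-5p ran from -1.86 to 0.918 (Met against SD), -0.315 to 0.772 (CR against SD) and -0.0535 to 1.03 (CR against Met).

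For total gene signal, miR-877-5p differed by -20.0 between Met and SD on slide 1 alone (exact permutation p = 0.107). Scaled to the 75th percentile, miR-1224-5p differed by 0.842 (CR against SD) and 1.11 (CR against Met), and miR-320-3p by 0.00257 (CR against Met). Without single mice, differences ran from -126 to 79.4 (Met against SD) and -297 to -91.5 (CR against SD) for miR-1224-5p, from -9.21 to -1.81 and -13.3 to -5.44 for miR-320-3p, and from -103 to 8.48 (Met against SD) for miR-451a. With detection set at 10 of 20 spots, miR-320-3p differed by -60 percentage points between Met and SD, against 20 with the software's flag.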
